A study of Homo sapiens with 40 samples.

Results

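In the deposited set of long-read transcript models, 6 genes were taken by name: MMAB, PDIA5, ANTKMT, NT5C, CDK10 and PTOV1. They were chosen by the positions in these models: in each gene at least 3 models carry a coding region whose last base lies over 50 nt before the final exon junction, a position that marks an mRNA as a candidate for nonsense-mediated decay. They are 6 of 9460 genes and hold 44 of 19972 models, of which 43 have a coding region and 19 are candidates. The first 5 encode enzymes. PTOV1 encodes a protein that is not known as an enzyme, so the set is better described by its rule than as enzyme genes.

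The series used H9, a human embryonic stem cell (ESC) line, and split its mRNA by ribosome load. ESC were labelled control, and the neural progenitor cells (NPC) made from ESC carried the label dual-SMAD inhibition. In each cell type the cytosol, monosomes, light polyribosomes with 2 to 4 ribosomes and heavy polyribosomes with at least 5 gave 8 groups of 2 long-read and 8 groups of 3 short-read poly(A)+ libraries, 40 in all from 1 cell line. The models carry no count and no library name, so levels in ESC, NPC or a fraction are not given, depth is unknown, and nothing below measures decay or has a replicate. Of the markers of ESC 5 of 5 had a model, and of the markers of NPC 5 of 6, all but SOX1. The models pool both cell types, so the presence of a model does not show which cells expressed the gene.

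Nonsense-mediated decay reads the position of the stop codon. Splicing leaves an exon junction complex just upstream of each junction, and the first ribosome displaces those that it passes. A stop far upstream of the final junction leaves at least 1 complex behind, which recruits the UPF proteins and leads to degradation of the mRNA. Splicing can create such a stop by inserting sequence that contains one, or by changing the reading frame ahead of a stop that is otherwise out of frame.

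Where the coding regions begin matters for reading the early stops, so the bases at the deposited starts are shown first. They come from RefSeq promoter windows (GRCh38.p14, 250 nt before to 50 nt after the start of transcription), which were matched by symbol and cover 5 starts of 3 of the 6 genes. Capitals mark the first codon of the coding region, and each sequence runs 5′ to 3′ on the strand of the gene.
MMAB, 4 models, chr12:109573466-109573492, minus strand: gcagcctggctcATGgctgtgtgcggc
MMAB, model 3, chr12:109573495-109573521, minus strand: gggaacctggcgGGGtcaggtcccgtc
MMAB, model 6, chr12:109573542-109573568, minus strand: agcggtggcgcgGCCagctgtgggtgg
NT5C, 8 models, chr17:75131693-75131719, minus strand: ggcccggcggcgATGgcgcggagcgtg
CDK10, 3 models, chr16:89686699-89686725, plus strand: ccagcgctcggcATGgcggagccagat
The starts of MMAB model 3 and model 6 do not read ATG. Each lies on the second base of its model, so these coding regions are open at the 5′ end. Over the whole catalogue 1466 of 1466 distinct starts that lay further inside their model and within a window read ATG, which ties the deposited coordinates to GRCh38, and 11 of 81 starts within 2 nt of the first base of a model did (13.6%).

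The 19 candidates used 11 different stop positions. MMAB had 4 candidates among 7 coding models, PDIA5 3 of 4, ANTKMT 3 of 8, NT5C 3 of 9, CDK10 3 of 11 and PTOV1 3 of 4. Candidates made up 44.2% of the coding models of these genes against 3.14% of all 17247 coding models, a difference that the choice of the genes fixes. At least 1 candidate was found in 5.01% of 8579 genes with a coding region and at least 3 in 0.233%. The distance from stop to final junction ranged from 57 to 1176 nt with a median of 234 nt, beside a median of 194 nt for the 522 candidates of other genes. Just inside the threshold lay the 3 PTOV1 candidates, with 57 nt each, and NT5C model 8 with 75 nt. Just outside it lay NT5C model 5 with 38 nt, PTOV1 model 4 with 17 nt and ANTKMT model 4 with 16 nt. The other 21 non-candidates had their stop in the last exon.

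**Figure D1:**
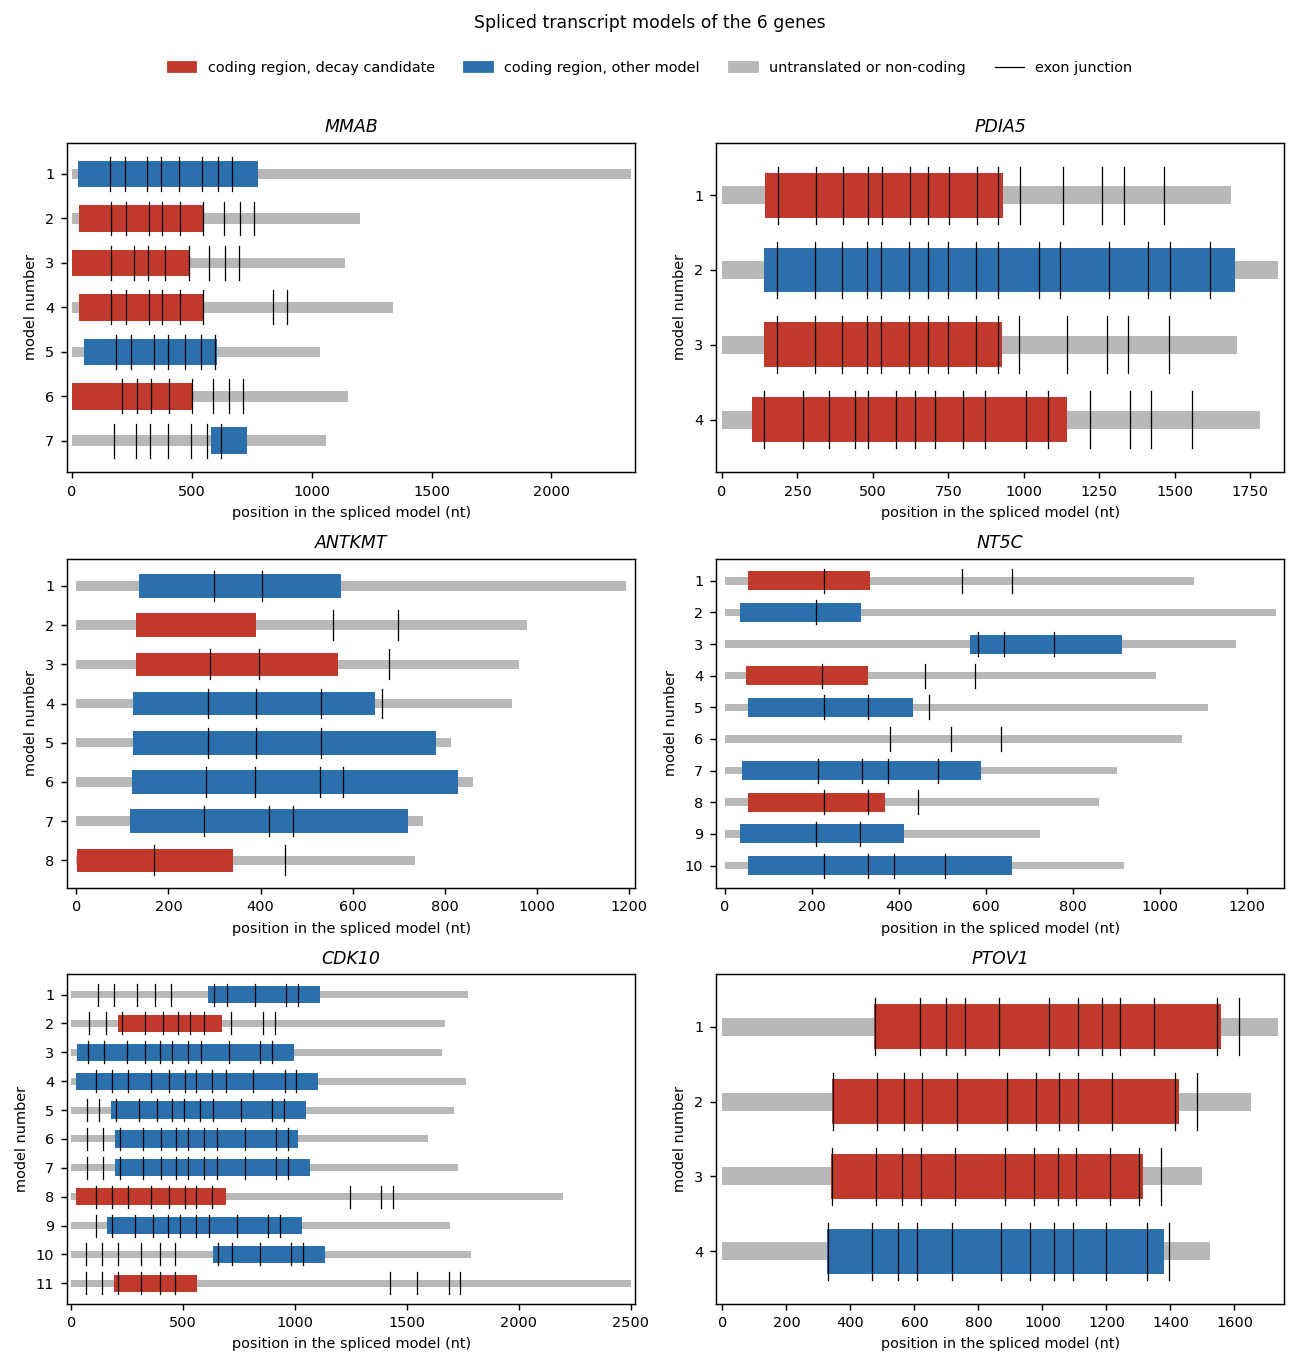
Spliced models of the 6 genes, 1 row per model (y axis, model number; x axis, position in nt), with coding regions red in candidates and blue in others, the rest grey, and exon junctions as black ticks. In candidates 1 to 5 junctions stand to the right of the coding region; in PTOV1 that is 1 junction, close to the stop.

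**Figure D2:**
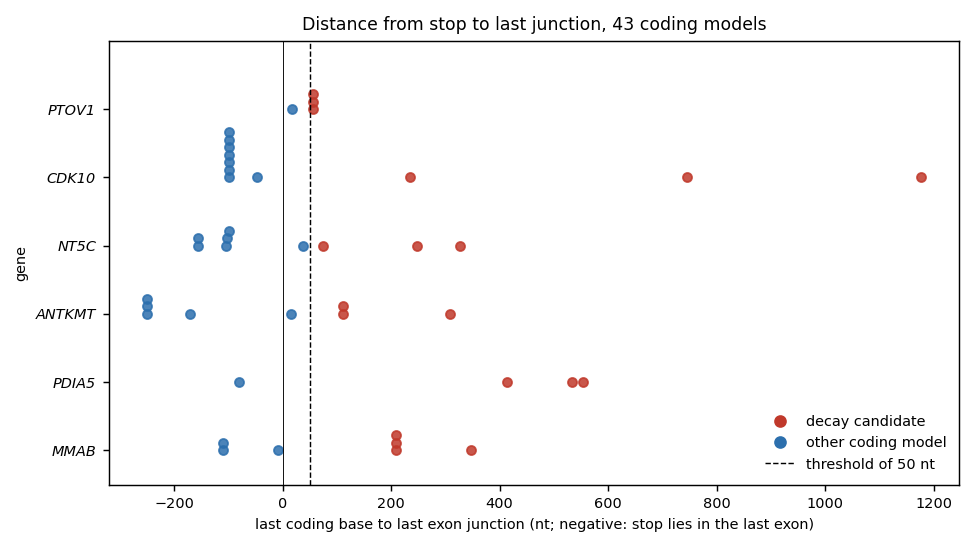
Distance in nt from the last coding base to the final junction (x axis) for the 43 coding models of the 6 genes (y axis), with points stacked where they coincide, red for candidates and blue for others. The dashed line is the threshold of 50 nt; the PTOV1 candidates sit at 57 nt and the farthest candidate, of CDK10, at 1176 nt.

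MMAB encodes the mitochondrial adenosyltransferase that converts vitamin B12 into adenosylcobalamin, the cofactor of methylmalonyl-CoA mutase. Its models lay on chromosome 12 from 109555475 to 109573557, minus strand. All 4 candidates ended at 1 stop, at 109561327, inside an exon of 87 nt (109561243 to 109561329) that the complete model lacks. Models are numbered here within each gene by their deposited identifier. Model 1 joined the exons on either side directly and held 251 codons, counted with the stop. In models 2, 3 and 6 the exon was spliced in whole. In model 4 its upstream splice site was used but the exon ran on into the next one, an alternative 3′ splice site that adds 225 nt. The lengths 87 and 225 nt are divisible by 3, so the insertion would not shift the frame. The final codon of the coding region, taken as the stop, is the first codon of the inserted sequence. Its last base is base 3 of the insert.

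Models 2 and 4 kept 173 codons of the complete coding region and ended with the next codon, at 174. Their stops lay 209 and 347 nt upstream of the final junction. Models 3 and 6 also ended 209 nt upstream of it, with 163 and 168 codons, but reached the stop differently. Model 3 lacked an exon of 62 nt and model 6 one of 94 nt, neither length divisible by 3. Their open coding regions began 29 and 76 nt upstream of the ATG of model 1, out of its frame, and came into its frame only after the missing exon, for 107 and 76 codons. No ATG codon and no stop codon lay in the upstream part of either frame before the usual start. All 7 models held the ATG at 109573480, and 4 used it. Against the model that shares most of its introns, model 7 with 50 codons near the 3′ end, model 3 shared no frame, and the 87-nt exon was the single splice difference. The non-candidates other than model 1 were model 7, which lacked the 62-nt exon too, and model 5. Model 5 skipped an exon of 98 nt and held 185 codons with its stop 9 nt into the last exon.

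PDIA5 encodes a protein disulfide isomerase of the endoplasmic reticulum, an enzyme that forms and rearranges disulfide bonds in folding proteins. Its 4 models, on chromosome 3 from 123067022 to 123162104, plus strand, were the 4 combinations of 2 binary choices. The first choice was an exon of 137 nt (123130480 to 123130616), present in models 2 and 4 and skipped in models 1 and 3. The second was a 3′ splice site further downstream, used in models 1 and 4, which removes 19 nt (123146099 to 123146117) from the start of an exon. Neither length is divisible by 3, and only model 2, with the exon and the upstream site, kept the frame to the end, with 520 codons. The gene therefore had 1 complete form and 3 candidates.

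Skipping of the exon in models 1 and 3 left 257 codons in frame, after which 6 codons led to a stop at 123145537 in the next exon. Both coding regions held 263 codons. The stops lay 534 nt and 553 nt upstream of the final junction with 5 junctions in between, and the difference of these distances is the 19 nt of the second choice. In model 4 the downstream splice site left 327 codons in frame and 22 more led to a stop at 123146183, giving 349 codons and a distance of 413 nt with 4 junctions in between. In model 1 the 19-nt difference lies after the stop. The exon and this segment together come to 156 nt, which is divisible by 3, but the stop falls between the changes. All 4 models began at the same start, 123067165.

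ANTKMT encodes a mitochondrial lysine methyltransferase that acts on the adenine nucleotide translocase. Its 8 models lay on chromosome 16 from 721139 to 722590, plus strand, and the complete form, model 6, had 5 exons and 236 codons. Sequence that is intronic in the complete form held the stop of each of the 3 candidates. In model 2 an intron of 161 nt (721437 to 721597) was retained. The frame left the complete one after 54 codons, and 33 more led to a stop whose last base is base 99 of the intron, 308 nt upstream of the final junction. This intron was spliced in 5 models and retained in 1.

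In ANTKMT models 3 and 8 an exon ran on through the whole of the next intron, 142 nt from 721942 to 722083, and was then joined to the last exon. The exon of 51 nt that follows that intron was skipped. The new 5′ splice site thus falls directly before the first base of the skipped exon. The stop, at 721971, was 30 nt into the intronic sequence and 112 nt upstream of the final junction. Model 3 held 146 codons, of which 136 were in the frame of the complete form. Model 8 held 113 codons, 82 of them in frame, and began within 2 nt of the first base of the model, in the intron of 161 nt, so its start is open. Model 1 read the same stop with 146 codons but removed no further intron, which left the stop in its last exon and the model outside the candidates.

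The other ANTKMT non-candidates showed events of similar size with other outcomes. Model 4 used a 5′ splice site 82 nt further downstream and had its stop 16 nt before the final junction, under the threshold. Model 5 skipped the 51-nt exon alone and model 7 an exon of 105 nt. These lengths are divisible by 3, and the coding regions of 219 and 201 codons ended at the stop of the complete form.

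NT5C encodes a cytosolic nucleotidase that removes the phosphate from deoxyribonucleotides. It had 10 models on chromosome 17 from 75130224 to 75131761, minus strand, 9 of them coding, and its complete form, model 10, held 202 codons in 5 exons. Its candidates came from a retained intron and from a skipped exon, which leave the frame at the same junction, after 91 codons. In models 1 and 4 an intron of 75 nt (75131106 to 75131180) was retained. Although 75 is divisible by 3, the coding region ended 4 nt into the intron, at 75131177, which makes the final codon bases 2 to 4 of the intron. Both coding regions held 93 codons. The stop lay 327 nt upstream of the final junction in model 1 and 247 nt in model 4, because model 1 also used a 5′ splice site 80 nt further downstream.

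In NT5C model 8 the exon after that intron, of 61 nt (75131045 to 75131105), was skipped. The shift led to a stop at 75130828 after 14 more codons, for 105 in all, and 75 nt upstream of the final junction. The 75-nt intron was spliced in 5 models and retained in 3. The remaining model, model 2, had the same stop with 93 codons but removed no intron after it, so the stop lay in its last exon. Model 9 skipped the 61-nt exon together with the next, of 115 nt, and ended in the last exon with 126 codons. Model 5 also held 126 codons, through the 5′ splice site 80 nt downstream, and its stop was 38 nt before the final junction. Model 7 differed from the complete form by 5 nt at a 3′ splice site and held 183 codons. Of the 9 models with the ATG at 75131707, 8 began there, the candidates among them. The exception, model 3, kept the first intron and was given 116 codons from a start further downstream.

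**Figure D3:**
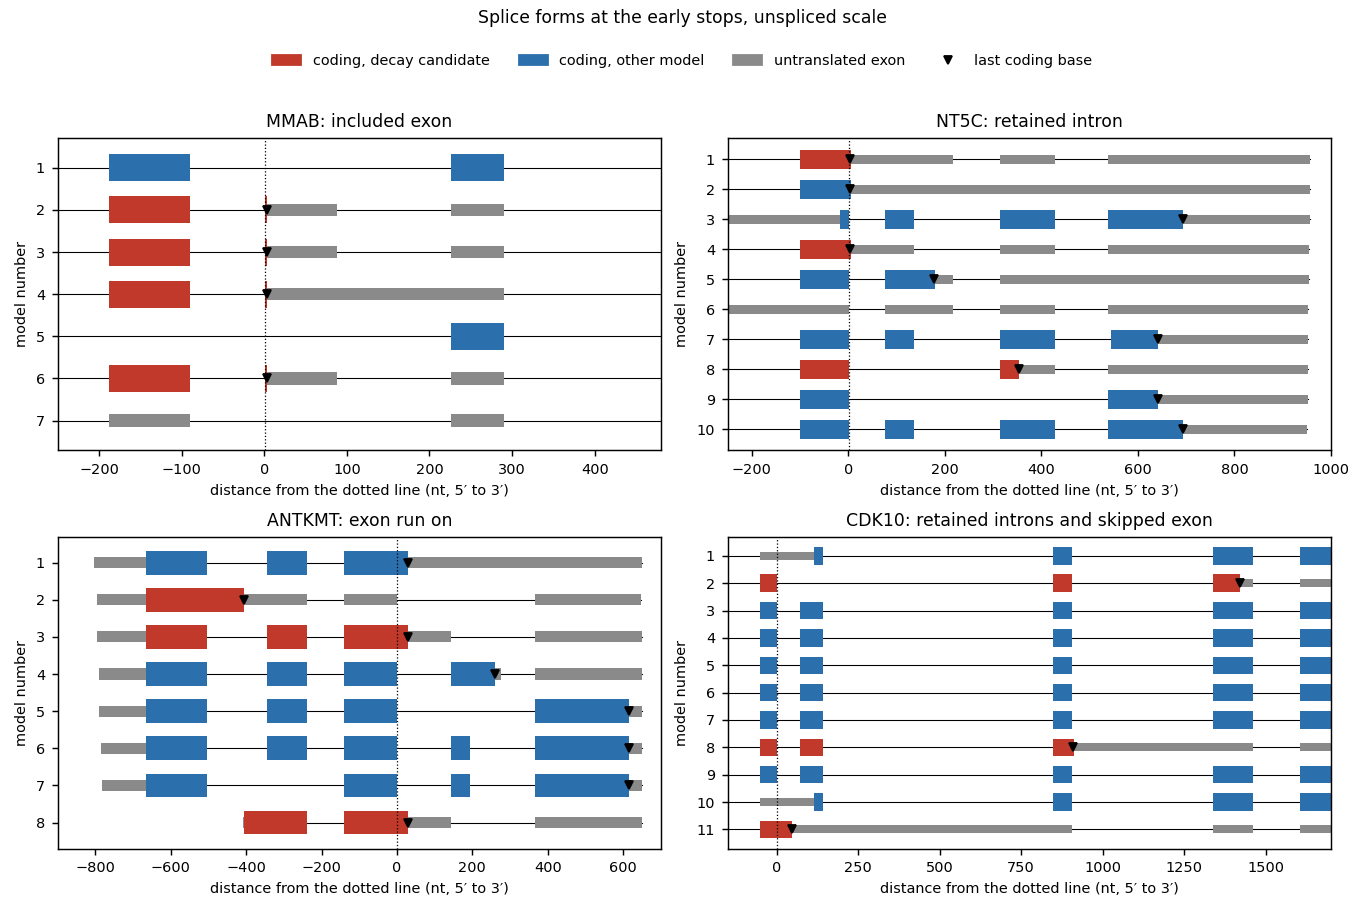
Models of MMAB, NT5C, ANTKMT and CDK10 around their early stops, unspliced (x axis, distance in nt from the dotted line, the first base of the 87-nt exon and of the introns of 75, 142 and 71 nt; y axis, model number), with coding parts red in candidates and blue in others, untranslated exons grey, introns as lines and last coding bases as triangles. The stops of MMAB and of NT5C models 1, 2 and 4 lie 3 and 4 nt into the inserted sequence.

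CDK10 encodes a cyclin-dependent kinase that pairs with cyclin M and phosphorylates the transcription factor ETS2. It had 11 models, all coding, on chromosome 16 from 89686680 to 89696356, plus strand, and the longest coding region, in model 4, held 361 codons in 13 exons. The 3 candidates had 3 stops from 3 events. In model 2 an exon of 70 nt (89693398 to 89693467) was skipped, which left 108 codons in the frame of model 7, the closest non-candidate, and added 48 before a stop at 89694747. It held 156 codons and ended 234 nt upstream of the final junction. In model 8 an intron of 432 nt (89694233 to 89694664) was retained, and the coding region of 224 codons ended 4 nt into it, 745 nt upstream of the final junction. As in NT5C, the insert is divisible by 3 and the final codon is bases 2 to 4 of the intron. In model 11 the intron of 71 nt (89693327 to 89693397) before the 70-nt exon was retained. Its coding region of 124 codons ended at base 47 of that intron, 1176 nt upstream of the final junction. Model 11 also retained the next intron, of 705 nt, which lies after the stop.

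The 71-nt intron of CDK10 was retained in 3 models, of which 1 is a candidate. Models 1 and 10 retained it too, but their deposited coding regions of 167 codons begin after it, at 89693442, and end at the stop of the longest form. Both models hold the whole coding region of model 11, junction for junction, and in them it would end 471 nt upstream of the final junction. Counted that way CDK10 would have 5 candidates. Over the catalogue 113 of 19431 non-candidate models (0.582%) hold such a coding region of another model of their gene. Whether the upstream or the downstream start is used in the cells was not tested. The 432-nt intron was spliced in 10 models and retained in 1, and the 70-nt exon stood as an exon of its own in 7 and was skipped in 1.

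The start of CDK10 also varied. All 11 models held the ATG at 89686711, but 3 began there (models 3, 4 and 8), 6 at 89690606 and 2 at 89693442. The coding regions of 5 non-candidates, with 167 codons in models 1 and 10 and 290 in models 5, 7 and 9, ended at the stop of model 4, in its frame, and began further downstream. Model 3, with 324 codons, skipped an exon of 73 nt behind a first exon that ended 38 nt earlier, and kept the start, the frame and the stop. Model 6, with 273 codons, had a last exon that began 134 nt further downstream and another stop.

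PTOV1, unlike the other genes, had candidates with a longer coding region than its longest non-candidate, in 2 of the 3, and the third was shorter than it. Its 4 models lay on chromosome 19 from 49851022 to 49860742, plus strand, each with 13 exons and the same start at 49851497. All 3 candidates ended at 49860279, in the exon before the last, 57 nt upstream of the final junction. Models 1 and 2 held 361 codons and model 3 held 325. The single non-candidate, model 4, held 351 codons and had its stop 40 nt further downstream in the same exon, 17 nt before the junction. Each of the 4 stops was thus followed by 1 intron in the 3′ untranslated region.

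The splice difference among the PTOV1 models was the choice between 3 alternative 3′ splice sites of a single exon, which gave it lengths of 198, 128 and 90 nt. Models 1 and 2 had the 198-nt form, model 4 the 128-nt form and model 3 the 90-nt form. The longest and the shortest differ by 108 nt, or 36 codons, and read to the same stop in the same frame. The middle form differs from them by 70 and 38 nt, which are not divisible by 3, and reads another frame after 291 shared codons. Measured against model 4, as the comparison with a non-candidate requires, an alternative 3′ splice site separates each candidate from it. Models 1 and 2 differ from each other in the last intron, of 277 and 229 nt. When the threshold was raised to 100 nt, none of the PTOV1 models was a candidate.

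Over the 19 candidates, the splice difference that ends the shared frame was most often a retained intron (5) or an alternative 3′ splice site (5). Skipped exons (4), included exons (2) and an alternative 5′ splice site with a skipped exon (2) followed. MMAB model 3 shared no frame with its comparison model, and against the longest MMAB form it counts as an included exon, which makes 3. Of the alternative 3′ splice sites 3 belong to PTOV1, where models 1 and 2 hold 361 codons against 351 in the comparison model. The stop of that model also lay upstream of the final junction, by 17 nt, so there the splice site moves the stop across the threshold. The candidates are not independent: MMAB has 1 stop for 4 of them, PTOV1 has 1 for 3, and ANTKMT, NT5C and PDIA5 each have 1 stop for 2. Among the 522 candidates of other genes 290 had such a splice event, led by 73 retained introns, 61 skipped exons, 56 included exons, 47 alternative 3′ and 37 alternative 5′ splice sites. A further 58 had the stop and frame of their comparison model and differed from it in the sequence between that stop and the final junction. Which splice difference lies there was not examined. The other genes also held 128 candidates without a non-candidate coding model to compare. An alternative 5′ splice site alone, as in those 37, was behind none of the 19.

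**Figure D4:**
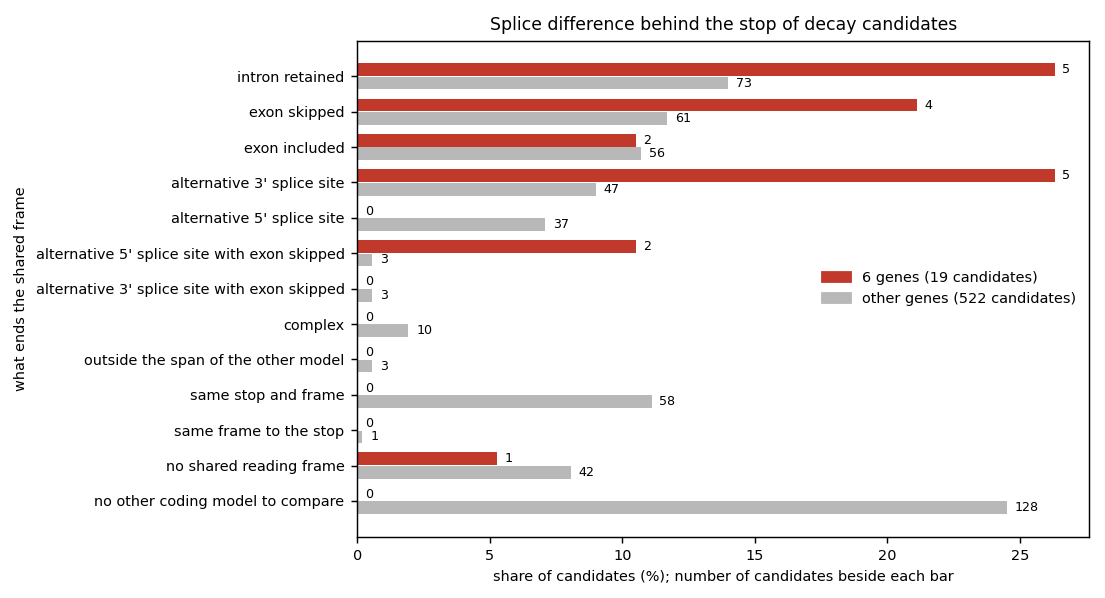
Share of candidates (x axis, %) by the splice difference that ends the frame shared with the comparison model (y axis), red for the 19 candidates of the 6 genes and grey for the 522 of other genes, with numbers beside the bars. Retained introns and alternative 3′ splice sites stand at 5 each in the 6 genes.

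In 11 of the 19 candidates the stop lay in sequence that the comparison model lacks. It was inserted sequence in MMAB (4), intronic sequence in ANTKMT (3), and a retained intron in NT5C (2) and CDK10 (2). In the other 8, from PDIA5, PTOV1, NT5C model 8 and CDK10 model 2, it lay in sequence that both models have, read in another frame. Of the 394 candidates of other genes with a comparison model, 167 had the stop in sequence that model lacks and 227 in sequence that it also has. The 227 include the 58 with the stop and frame of their comparison model, a class that held 0 of the 19.

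**Figure D5:**
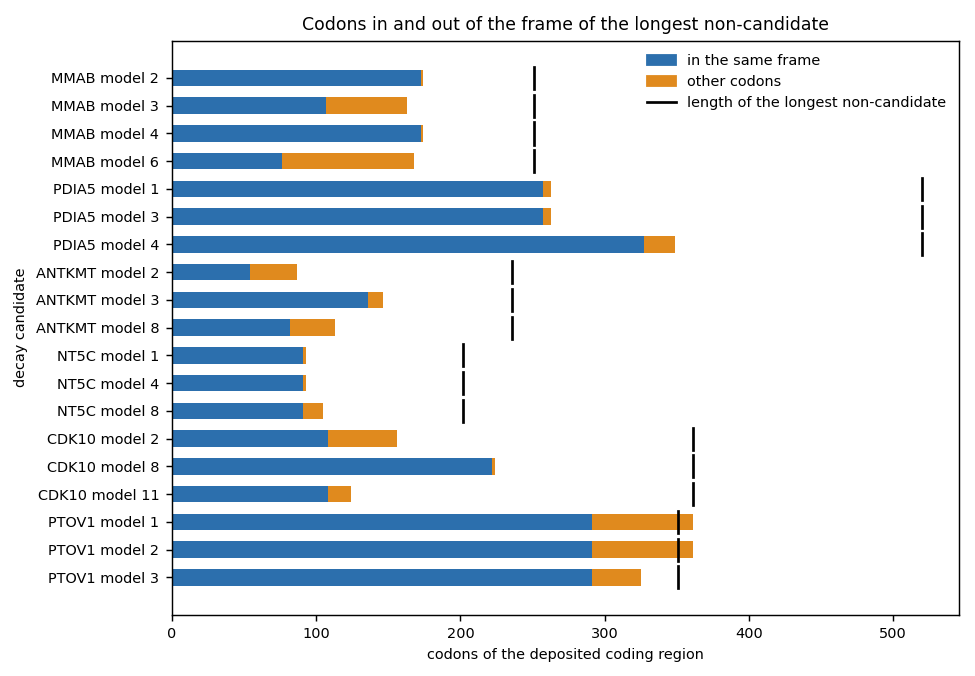
Codons of each candidate (y axis) in the frame of the longest non-candidate of its gene (blue) and other codons (orange), on the x axis in codons, with the length of that non-candidate as a black line. PTOV1 models 1 and 2, with 361 codons, pass the line at 351.

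The 18 candidates with a named event kept a median of 49.4% of the codons of their comparison model, beside 55% in the 290 of other genes. A median of 15 codons lay outside the frame shared with the comparison model, beside 14 in other genes. In candidates with another coding start these include codons before the shared frame. The size of the event was not divisible by 3 in 12 of the 18 and in 237 of the 290. In the other 6, which belong to MMAB, NT5C and CDK10, the frame would have been kept, and the stop lay within the first 4 nt of the insert.

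Genes related to the 6 by family or pathway rarely had candidates. In the lists of disulfide isomerases (12 other genes with a coding model, 23 coding models), of lysine methyltransferases of the family of ANTKMT (8 genes, 30 models), of cyclin-dependent kinases (14 genes, 26 models) and of nucleotidases (6 genes, 14 models), none of the other genes had 1. In the cobalamin and propionate pathway 1 of 12 other genes did: PCCA, a subunit of propionyl-CoA carboxylase, had an included exon of 84 nt and a candidate with 434 codons against 729. For PTOV1 the list held Mediator subunits of the head and tail modules and MED25. Of these 1 of 15 had a candidate: MED15 had a retained intron of 85 nt and 695 codons against 749. Among decay factors 1 of 12 did: MAGOHB, an exon junction protein, had an included exon of 286 nt and 91 codons against 149. Over all genes with a coding region the share was 5.01%, so these counts are near the background.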

How the data were processed

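The authors' deposited transcript models, labelled as long-read, give positions in nt of transcripts, exons and coding regions and no level. Salmon 1.9.0 and STAR 2.7.8a stand in the submitters' processing notes with no role. The sources used here do not name the caller of models and coding regions, the annotation or the build. Positions are printed as deposited, from 1. Introns are the gaps between exons. The last codon of each deposited coding region was taken as its stop, so codon counts include it. The bases of the early stops were not available to check this.

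Each candidate was compared with the non-candidate coding model of its gene with the same coding start, then most shared introns, then the longest coding region. The named event is the first splice difference after the last coding base that both models read in 1 frame. The event caller was checked on simulated models (Python 3.11.15). These held a skipped exon, an included exon, a retained intron and alternative 5′ and 3′ splice sites, with a shared coding start. An alternative 5′ splice site with a skipped exon and candidates with another coding start were not part of the check. All 44 models overlapped the span of their gene in RefSeq. Planned tests of counts per library were not run, since the file holds none, and no test was made. The 6 genes and the lists were chosen with earlier results of these data known. All 6 were named, and from each list up to 3 genes with a candidate.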

Additional observations from a re-analysis of the deposited data

How the results depend on the processing

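Raising the distance threshold from 50 to 55 nt left the count of each of the 6 genes as it was. At 100 nt PTOV1 had 0 candidates in place of 3, NT5C had 2, and the 6 genes together 15 in place of 19. With any distance over 0 nt the 6 genes had 22, and all genes 1254 in place of 541. Without coding regions within 2 nt of a model end MMAB had 2 candidates in place of 4, since the frames of models 3 and 6 are open, ANTKMT had 2, and the 6 genes 16. Counting models that hold a coding region of another model, an alternative chosen after seeing the data, gave CDK10 5 in place of 3. With the longest coding region as comparison, 0 member candidates in place of 1 shared no frame. Among other genes, requiring the form in at least 2 models moved alternative 5′ splice sites from 12.8% to 21.1% of named events; fewer candidates qualify, and the cause was not tested further. In 56 of 62 alternatives the value stayed within 1.5 times that reported. No paired analysis was possible because the models carry no value per library. Depth is unknown.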

Other observations

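The last coding base fell on base 4 of a retained intron in 3 of the 5 intron-retention candidates of the 6 genes, in 1 intron each of NT5C and CDK10. Of the 73 such candidates of other genes, 62 had the stop inside the retained intron, and in 6 of these 62 it ended on base 4 (9.68%). The inserted sequence was divisible by 3 in 3 of those 5 and in 21 of the 62 (33.9%). Among included exons that hold the stop, that of MMAB ended the frame with its first codon, and in other genes the stop lay within the first 4 nt in 2 of 51, with a median of 24 nt. These are descriptions of the models, noticed after the values were seen.

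Another 14 genes had at least 3 candidates. Those that RefSeq lists as protein-coding were FAM120AOS, SUMF2 and TMEM134, with 3 each. The rest were pseudogenes, long non-coding RNA genes and 1 gene without an entry; AMZ2P1 had 8 candidates among 8 coding models.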
